A study of Mus musculus with 234 samples.

Results

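A set of 40 cell cycle genes was followed through single cardiomyocytes (CMs) of mice that carry human BAG3 with the P209L exchange. The members were found as the rows with their names in the deposited count table, and all 40 were present once among its 55538 features. They comprised 27 genes used in the G2 and M phases, 10 S phase genes and 3 cyclins of the G1 phase. The list was put together with results of these data in view, so the count of cells that hold its genes is given as a description without a test.

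Single CMs were picked by hand from enzymatically dissociated ventricles of 5 mice, and the mRNA of each cell was read in a well of its own by SMART-seq2, a full-length method without molecular identifiers. Control CMs came from mice M26 (24 cells) and M73 (9 cells), labelled C57BL/6. Per the study's methods, controls were siblings that were wild type or carried PGK-Cre or the floxed transgene alone, and the lines, transgenic mice included, were kept on a mixed 129S6/SvEvTac, C57BL/6Ncr and CD-1 background. Homozygous CMs (label PGKcre:BAG3P209L_homo) came from M25, with 21 bright and 18 dim cells, and from M116, with 59 bright and 50 dim cells. The label PGKcre:BAG3P209L_het applied to 27 bright and 26 dim cells of a single mouse, M72, where bright and dim stand for the eGFP fluorescence of the cell. The transgene, a fusion of human BAG3 to eGFP behind a floxed STOP cassette under the ubiquitous CAG promoter, sits in the Rosa26 locus of a line derived from 1 embryonic stem cell clone, and its STOP cassette is removed by PGK-Cre, which is active in the whole body. In stained heart sections of mice aged 5 weeks, the study saw the fusion protein in CMs only. The control and homozygous mice were 2 weeks old and the age of M72 is not given. By the labels, cells of M25 and M26 lay on 1 plate and those of the other mice on 3 plates of another name series, which is used here as the only sign of a batch.

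The transgene was read first as a check of the labels. Human BAG3 had 8 and 2 counts in all control cells of M26 and M73, and in the summed counts of a mouse, scaled to 1000000 counts (CPM), it reached 294 and 233 CPM in cells labelled bright and 10.7 and 99.6 CPM in cells labelled dim of M25 and M116. In M72 the order was the opposite, with 104.8 CPM in the cells labelled bright and 251 CPM in those labelled dim. The heterozygous values below are therefore named by their labels, and no direction is drawn from the brightness of these cells.

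The cell cycle runs through G1, S, G2 and M phase and is driven by cyclins that activate cyclin-dependent kinases in turn. D-type and E-type cyclins carry cells out of G1, the MCM helicase and the nucleotide-making enzymes serve DNA replication in S phase, and cyclin B with its kinase Cdk1 starts mitosis, which ends when the anaphase-promoting complex with Cdc20 has cyclin B degraded. Mouse CMs divide before birth, pass through a last round of DNA synthesis in the days after it that mostly leaves them with a second nucleus, and then leave the cycle, whereas endothelial cells, fibroblasts and macrophages of the growing heart still divide.

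Promoters of G2 and M phase genes are known for CCAAT boxes and a cell cycle homology region (CHR), the site at which the DREAM and MuvB complexes bind, while S phase genes are known for E2F sites. These letters were searched on both strands in the 250 bases before each start site in the RefSeq promoters of build GRCm38.p6, where 33 of the 40 members matched. The CCAAT box was searched as such. For the CHR the letters TTTGAA were taken. The variant TTTAAA was counted with them. For E2F the letters GCGGGAA were taken. The variant GCGCGAA was counted with them. CCAAT was found in 22 of 25 promoters of 23 G2 and M phase genes (88.0%) and in 9 of 10 promoters of 9 S phase genes (90.0%), against 33.9% of all 32851 promoters. A CHR match was found in 16 of the 25 (64.0%) and in 2 of the 10 (20%), against 25.2% of all promoters, and an E2F match in 1 of the 25 (4%) and in 5 of the 10 (50%), against 5.001% of all promoters. CCAAT and CHR occurred together in 15 of the 25 G2 and M phase promoters (60%) and in 8.78% of all promoters. The 150 bases before the start site are shown for 4 G2 and M phase genes and 2 S phase genes whose stretch overlaps annotated exons by 30 bases at most, in the direction of transcription and with matches of these letters in capitals. The first 4 hold a CHR match that starts 15 to 23 bases before the start site together with 1 to 4 CCAAT matches, and Cdk1 also holds a second CHR match and an E2F match. The last 2 hold E2F and CCAAT matches and no CHR match. Such matches describe the letters only and were not measured as binding.
Cdk1 (chr10:69352913-69353062, minus strand): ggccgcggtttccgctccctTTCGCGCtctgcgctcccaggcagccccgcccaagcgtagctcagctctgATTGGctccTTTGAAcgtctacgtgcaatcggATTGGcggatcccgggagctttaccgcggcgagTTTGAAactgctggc
Cdc20 (chr4:118437344-118437493, minus strand): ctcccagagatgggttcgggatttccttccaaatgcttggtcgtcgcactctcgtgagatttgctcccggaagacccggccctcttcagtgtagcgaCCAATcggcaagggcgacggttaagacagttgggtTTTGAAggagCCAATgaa
Top2a (chr11:99024190-99024339, minus strand): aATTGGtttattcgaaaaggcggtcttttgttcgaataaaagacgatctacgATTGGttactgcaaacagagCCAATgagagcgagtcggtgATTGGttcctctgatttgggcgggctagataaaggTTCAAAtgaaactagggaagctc
Kif11 (chr19:37376232-37376381, plus strand): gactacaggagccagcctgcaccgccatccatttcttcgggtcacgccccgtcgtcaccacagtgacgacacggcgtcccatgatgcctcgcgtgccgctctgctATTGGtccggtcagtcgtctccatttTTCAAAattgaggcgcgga
Mcm6 (chr1:128359706-128359855, minus strand): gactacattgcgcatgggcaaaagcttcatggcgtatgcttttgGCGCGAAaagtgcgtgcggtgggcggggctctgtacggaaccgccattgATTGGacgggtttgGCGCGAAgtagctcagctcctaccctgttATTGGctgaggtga
Rrm1 (chr7:102441545-102441694, plus strand): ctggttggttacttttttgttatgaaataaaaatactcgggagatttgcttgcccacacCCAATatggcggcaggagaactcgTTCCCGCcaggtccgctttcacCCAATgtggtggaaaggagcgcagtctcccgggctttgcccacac

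At least 5 of the 40 genes, counted as detected with 1 count or more, were found in 127 cells (54.3% of all cells, exact Clopper-Pearson 95% interval 47.7 to 60.8). The intervals cover counting error only, since reads without molecular identifiers are not independent molecules. In the control group 10 of 24 cells of M26 and 1 of 9 cells of M73 had 5 or more, and in the homozygous bright cells 12 of 21 of M25 and 29 of 59 of M116. Among homozygous dim cells it was 12 of 18 of M25 and 31 of 50 of M116, and in the heterozygous mouse 16 of 27 bright and 16 of 26 dim cells. The shares were 33.3% of control, 51.3% of homozygous bright, 63.2% of homozygous dim, 59.3% of heterozygous bright and 61.5% of heterozygous dim cells. The threshold cut through the bulk of the cells, because exactly 5 genes were found in 31 cells and exactly 4 in 33 cells. When each cell was thinned to 100000 counts, which left out 20 shallower cells, 76 of 214 cells (35.5%) still had 5 or more. The plot of genes per well shows that most cells of every group lay between 0 and 10 genes.

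**Figure D1:**
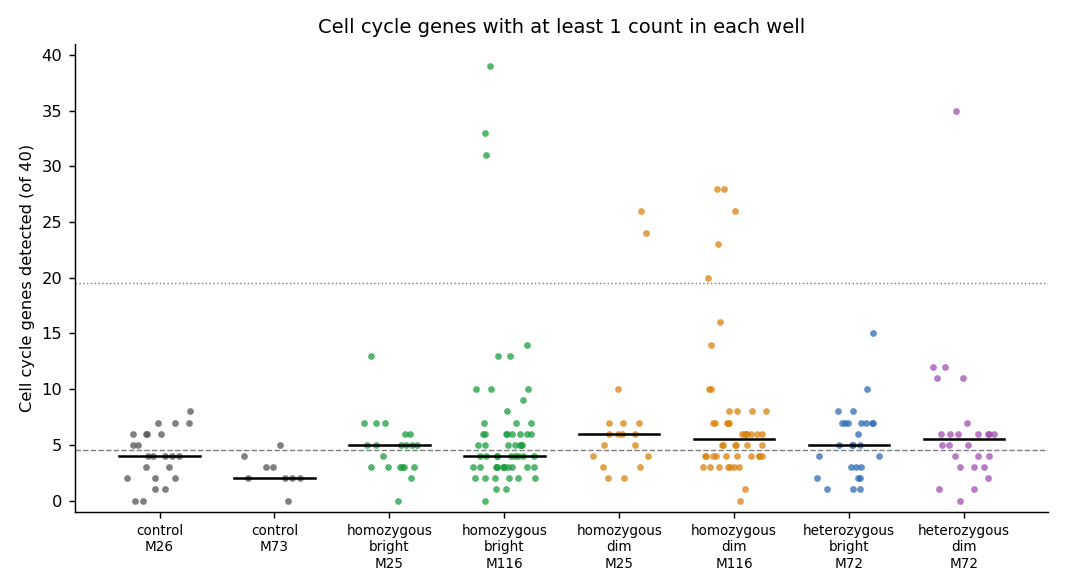
Number of the 40 cell cycle genes with at least 1 count in each well, by group and mouse, with 1 point for each well and a bar at the median. The dashed line lies below 5 and the dotted line below 20 genes; 11 wells lie above the dotted line and none of them is a control well, while the medians of the 8 columns lie between 2 and 6.

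A few members were detected widely. Ccnd2, a D-type cyclin, was detected in 217 cells, Cenpa, the histone H3 variant of the centromere, in 174, and Pcna, the sliding clamp of DNA polymerases, in 125. Cenpf, a kinetochore and nuclear matrix protein, was found in 91 cells and Rrm1, the large subunit of ribonucleotide reductase, in 74. The 27 G2 and M phase genes were found in 5 (Ttk) to 174 (Cenpa) cells each, with a median of 17 cells, and 164 cells had at most 2 of them. Counted over these 27 genes alone, 5 or more were found in 24 cells (10.3% of all): 0 of 33 control, 6 of 80 homozygous bright, 10 of 68 homozygous dim, 4 of 27 heterozygous bright and 4 of 26 heterozygous dim cells. The 0 of 33 control cells allow a share of up to 9.09% (3 cells of 33), and the exact interval reaches 10.6%.

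Cells with 5 or more cell cycle genes also held genes of other cell types more often than the rest. At least 3 markers of endothelial cells, of fibroblasts or of macrophages were detected in 58 of 127 of them (45.7%, interval 36.8 to 54.7) and in 22 of the 107 cells with fewer cell cycle genes (20.6%, 13.4 to 29.5). The intervals do not overlap, but cells of 1 mouse are not replicates and no test was made. The number of genes detected moved in the same direction, with medians of 6092 and 5015 genes per cell, and its part in the difference was not tested. By list, 40 of the 127 cells had 3 or more of 12 endothelial, 38 of 10 fibroblast, 4 of 12 macrophage, 23 of 7 mural cell and 5 of 6 erythroid markers. Among the other 107 cells it was 9, 14, 3, 5 and 1, so that the macrophage counts hardly differed. No cell of either set had 3 of the lymphocyte, neutrophil, epicardial or glial markers. Among single markers the vascular protein Egfl7 was found in 49 of the 127 cells against 16 of the other 107, endoglin (Eng) in 47 against 14, Pecam1 in 40 against 13 and the collagen Col3a1 in 39 against 19. The other fibroblast markers varied, with decorin (Dcn) in 31 against 23 cells, Pdgfra in 11 against 8, Mmp2 in 24 against 8 and Tcf21 in 8 against 1. The macrophage marker Tyrobp was found in 3 cells of each set and Mrc1 in 7 against 1. Acta2 is 1 of the 7 mural markers and is also made by CMs of young mice. It was found in all 127 cells and in 98 of the other 107, so it counted towards the mural rule in nearly every cell. All 12 CM markers were detected in each of the 127 cells and in 102 of the other 107.

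The counts by group were not compared by a test. In homozygous dim cells 26 of 43 cells with 5 or more cell cycle genes held markers of these other cell types (60.5%, 44.4 to 75.02), against 2 of 25 cells with fewer (8%, 0.984 to 26.03). In homozygous bright cells it was 16 of 41 (39.0%) against 9 of 39 (23.1%), and in control cells 6 of 11 (54.5%) against 6 of 22 (27.3%), with intervals that overlapped. Heterozygous cells labelled bright had 4 of 16 (25%) against 3 of 11 (27.3%), and those labelled dim 6 of 16 (37.5%) against 2 of 10 (20%).

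A small set of cells stood apart. Between 20 and 39 of the 40 genes were detected in 11 cells, and no cell had between 17 and 19 of them. This threshold of 20 was chosen after the values were seen. The 11 cells were 3 of 80 homozygous bright cells (3.75%, interval 0.780 to 10.6), all of M116, 7 of 68 homozygous dim cells (10.3%, 4.24 to 20.1), 2 of them of M25 and 5 of M116, and 1 of 26 heterozygous dim cells (3.85%). None of 33 control cells was among them, which allows a share of up to 9.09% when 0 is read as up to 3 cells and 10.6% by the exact interval, nor any of 27 heterozygous cells labelled bright, which allows 11.1% and 12.8%. After thinning to 100000 counts, 9 of 214 cells still had 20 or more. The intervals treat cells as independent, although they come from 1 or 2 mice a group, and no difference between groups was tested.

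These 11 cells held 76.6% of all counts of the 27 G2 and M phase genes in the series, although they held 5.68% of the counts of all genes. The 4 cells with the highest level of these genes held 64.6%. More than 80% of the counts of a gene lay in the 11 cells for 24 of the 27 genes, the exceptions being Ccnb2 (66.5%), Cenpf (70.1%) and Cenpa (31.5%). Over the 11516 features with 200 or more counts, 68 (0.590%) had more than 80% of their counts there. The cells were found by these members, so this concentration follows in part from the rule. For the S phase genes 37.3% of the counts lay in the 11 cells and for the G1 cyclins 7.88%, and the plot of these shares against the number of cells shows how the genes of the lists overlap.

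**Figure D2:**
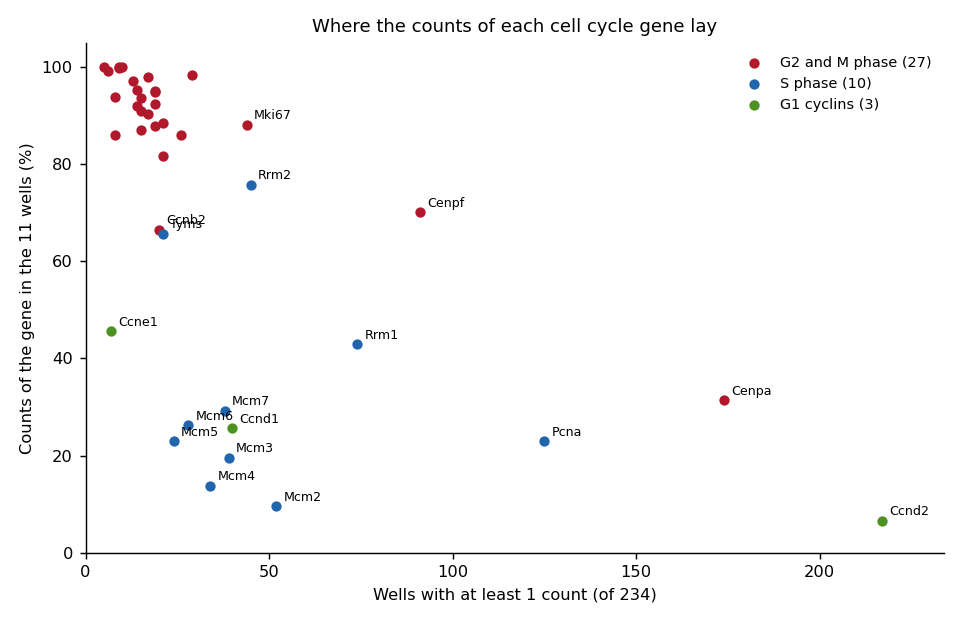
Share of the counts of each of the 40 genes that lay in the 11 wells with 20 or more cell cycle genes (vertical axis, percent) against the number of wells in which the gene was detected (horizontal axis), with 1 point for each gene and names for genes under 80% or over 38 wells. The G2 and M phase genes sit at the upper left apart from Cenpa, Cenpf, Mki67 and Ccnb2, the S phase genes Rrm2 and Tyms lie close to Ccnb2, and Ccnd2 sits at the lower right with 217 wells and 6.59%.

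The 11 cells differed in the level of the 27 genes and in the markers of other cell types. The summed level of the 27 genes, in CPM of the cell, was 15699 CPM in bright cell B2 of M116, 14732 CPM in dim cell D7 of M72, 7169 CPM in bright cell A2 of M116 and 5344 CPM in bright cell A4 of M116, where the letter and number give the well. Well names can occur on both plates of M116, and the cells meant are those with the levels given. The median over all cells was 59.9 CPM. Endothelial markers summed to 1.17 CPM in B2 and 1.26 CPM in A4, and to 229 CPM in D7 and 201 CPM in A2, so they were near 0 in 2 of the 4 cells. D7 had 9 of the 12 endothelial and 4 of the 10 fibroblast markers and A2 had 6 endothelial markers, so both held 3 or more markers of another cell type, while the median endothelial sum of the 223 cells with fewer than 20 genes was 0. Macrophage markers were at 0 in B2, D7 and A2 and at 41.5 CPM in A4, where Cd68 alone was detected, and fibroblast markers reached 12.5 CPM at most. CM markers summed to 52944 CPM in B2 and to between 73050 and 75926 CPM in the other 3, against a median of 100895 CPM in the 223 cells with fewer than 20 genes.

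In the other 7 cells, all of them homozygous dim cells, the 27 genes reached 520 to 2296 CPM and markers of another cell type were present in each. Endothelial markers summed to between 881 and 3182 CPM in dim cells F5, D6, H7 and E6 of M116 and E4 and C6 of M25, with 7 to 12 of the 12 markers detected. The endothelial markers Egfl7, Tie1 and Eng were detected in all of these 6 cells. Macrophage markers summed to 2780 CPM in dim cell B8 of M116, with 12 of 12 detected, among them the lysozyme gene Lyz2 (636 CPM) and the complement gene C1qb (367 CPM), while its endothelial markers stood at 27.1 CPM. Dim cell D6 held macrophage markers too (603 CPM), and H7 held fibroblast markers (1605 CPM), of which Dcn gave 716 CPM. The contribution of such transcripts to the cell cycle genes of these wells was not tested. In the same 7 cells fibroblast markers were at 0 in E6 and below 2 CPM in E4 and C6, and macrophage markers were at 0 in all but D6 and B8. Human BAG3 was detected in all 11 cells. In the 7 homozygous dim cells its median was 37.1 CPM, against 28.8 CPM in the other 61 dim cells, and in the 3 homozygous bright cells 130 CPM, against 207 CPM in the other 77 bright cells. The dim medians pool 2 unlike mice. Among the 7 cells it was at 20.4 and 21.05 CPM in those of M25 and at 14.4 to 286 CPM in those of M116. The other dim cells had medians of 0.416 CPM in M25 and 71.6 CPM in M116.

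**Figure D3:**
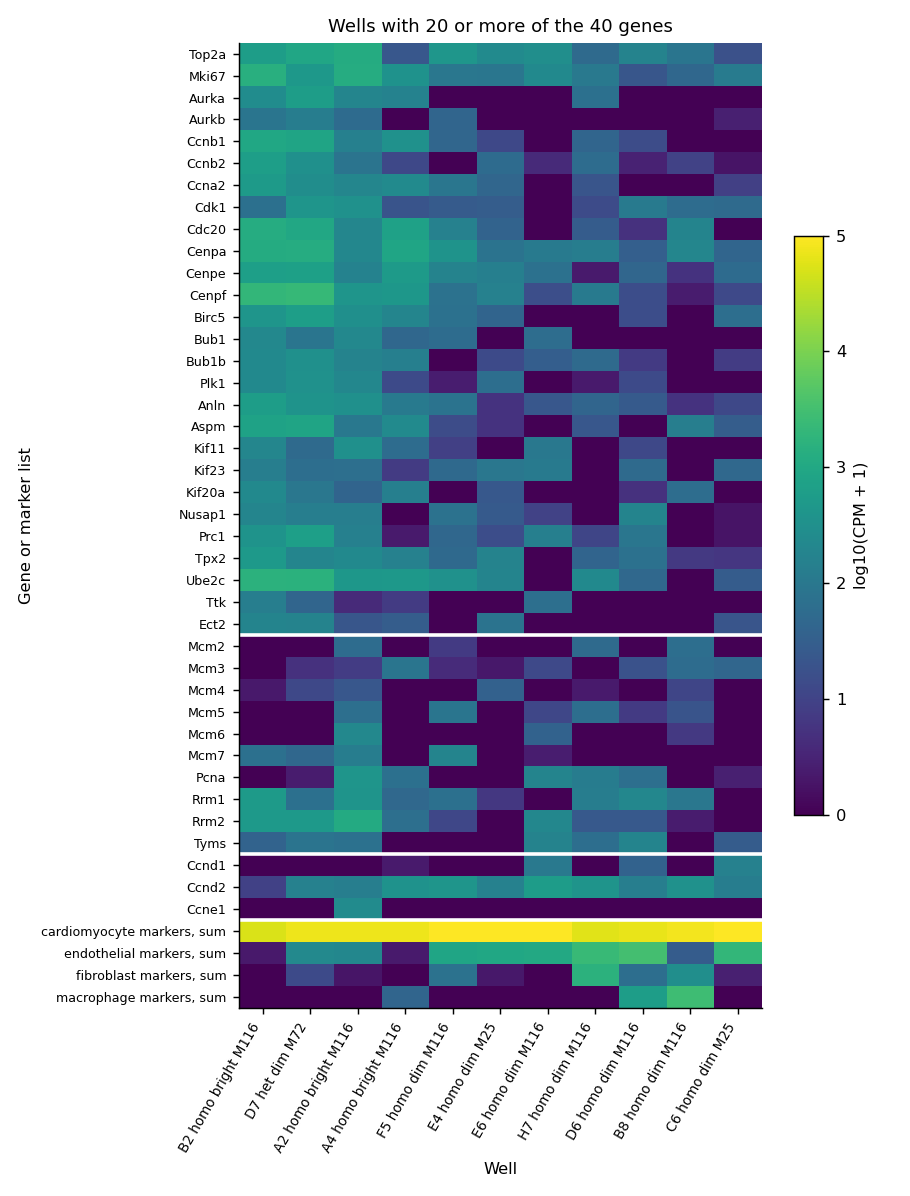
Levels of the 40 genes and of 4 summed marker lists (rows) in the 11 wells with 20 or more cell cycle genes (columns, ordered by the summed level of the 27 G2 and M phase genes), as log10 of CPM + 1 with 1 added to avoid the log of 0. White lines part the G2 and M phase genes, the S phase genes, the G1 cyclins and the marker sums; the 4 wells at the left have the highest G2 and M phase levels, with endothelial markers between 1.17 and 229 CPM, and B8 has the highest macrophage level.

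**Figure D4:**
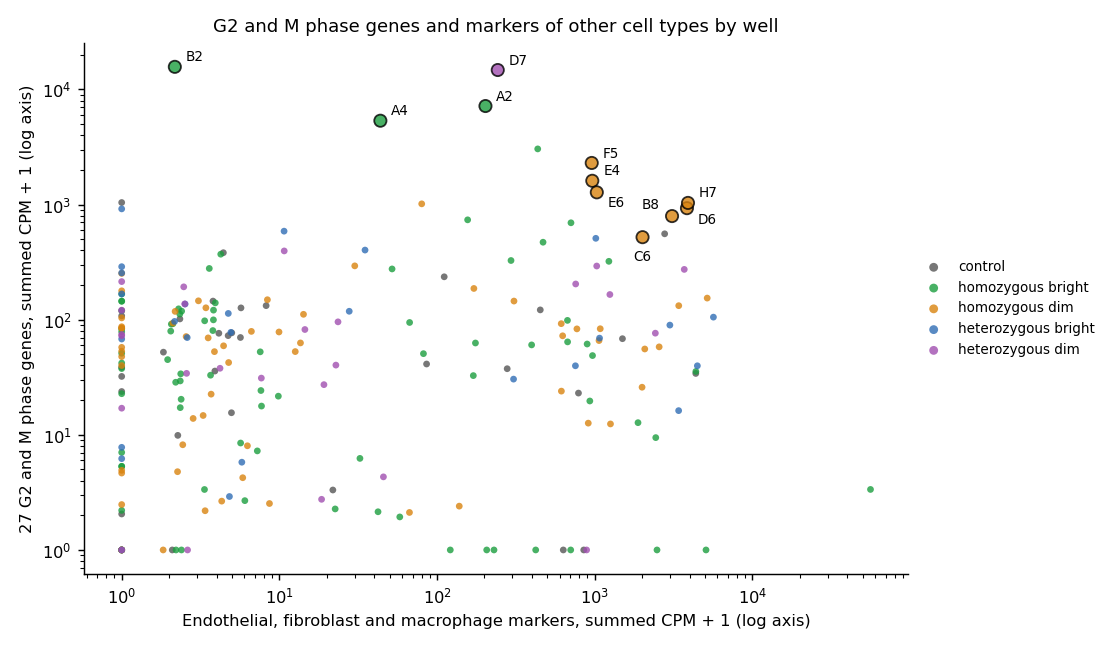
Summed CPM of the 27 G2 and M phase genes against the summed CPM of endothelial, fibroblast and macrophage markers in each well, both with 1 added and on log axes. Large outlined points are the 11 wells with 20 or more cell cycle genes: B2, A4, A2 and D7 lie at 5344 CPM or above at the upper left, and the other 7 lie between 520 and 2296 CPM towards the right, where the markers of other cell types are high.

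A further 4 cells with at least 100000 counts exceeded 500 CPM of the 27 genes with fewer than 20 of the 40 detected. They were dim cell H6 (1013 CPM, 10 of 40 genes), bright cell B4 (735 CPM, 7 genes) and bright cell G4 (693 CPM, 14 genes) of M116 and bright cell H4 of M72 (586 CPM, 7 genes). Another 5 cells above 500 CPM had between 962 and 2302 counts in all, where a few reads give such a level, and they are not described further.

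Among the regulators that start mitosis, Ccnb1 (cyclin B1) had 99.9% of its 1926 counts in the 11 cells. It was detected in 10 cells and reached 948 CPM in B2, 844 CPM in D7, 337 CPM in A4 and 151 CPM in A2. In the sums over the cells of a mouse it was at 0 in control cells of M26 and M73, at 0.0529 CPM in bright cells of M25 and 30.4 CPM in those of M116, at 0.544 and 2.15 CPM in dim cells of M25 and M116, and at 0.0722 and 44.8 CPM in bright and dim cells of M72. A count of 0 allows up to 3 counts, which is 0.153 CPM in M26 and 0.732 CPM in M73. Its kinase Cdk1 was at 0 in both control mice and in bright cells of M25, at 10.9 CPM in bright cells of M116, at 4.79 and 7.81 CPM in the dim cells and at 1.73 and 21.6 CPM in M72. Ccnb2 and Ccna2, further cyclins of G2 and M phase, were also at 0 in both control mice and in bright cells of M25, and reached 22.9 and 21.3 CPM in bright cells of M116. Aurora kinase A (Aurka) was detected in 8 cells and was at 0 in dim cells of M25 as well, whereas Plk1, which acts with it at mitotic entry, was found in 9 cells, 8 of them among the 11.

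Cdc20, the activator of the anaphase-promoting complex, was at 0 in both control mice and in bright cells of M25. It stood at 45.9 CPM in bright cells of M116, at 1.85 and 12.02 CPM in dim cells of M25 and M116, at 0 in bright and at 56.1 CPM in dim cells of M72. Ube2c, the ubiquitin-conjugating enzyme of that complex, reached 1606 CPM in B2 and 1553 CPM in D7 and 0.255 CPM over the control cells of M26. Its exons overlap those of the troponin gene Tnnc2 on the opposite strand by 592 bases, and since the library does not mark strand, reads from this overlap cannot be told apart. The spindle checkpoint genes Bub1, Bub1b and Ttk were at 0 in all control cells and in bright cells of M25, and Ttk was detected in 5 cells, all of them among the 11. Aurkb and Birc5 (survivin) of the chromosomal passenger complex were found in 6 and 21 cells, and 99.2% and 81.6% of their counts lay in the 11 cells.

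The markers of cycling cells Mki67 (Ki-67) and Top2a (topoisomerase II alpha) showed how 1 cell can set the level of a mouse. Mki67 was at 0.204 and 0 CPM in control cells of M26 and M73, at 0 and 75.3 CPM in bright cells of M25 and M116, at 12.1 and 11.99 CPM in their dim cells and at 0.577 and 36.6 CPM in bright and dim cells of M72. Without the 11 cells it fell to 7.22 CPM in bright cells of M116, to 0 and 1.86 CPM in dim cells of M25 and M116 and to 12.2 CPM in dim cells of M72. Top2a was at 0.0511 and 0 CPM in control cells, at 0.106 and 45.2 CPM in bright, at 13.3 and 22.5 CPM in dim homozygous cells and at 0.144 and 49.0 CPM in M72, and without the 11 cells no sum exceeded 0.820 CPM. Bright cell A2 alone gave 36.0% of all Top2a and 30.9% of all Mki67 counts. Both genes were detected in all 11 cells, as were Cenpa, Cenpe, Cenpf and Anln.

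The genes of spindle and cytokinesis followed the same cells. Kif23 and Ttk were found in none of the 223 cells with fewer than 20 genes. Kif11, the motor that separates the spindle poles, was found in 15 cells and Kif20a in 15, Tpx2 in 17, Nusap1 in 13, Prc1 in 19, Aspm in 19, Ect2 in 14 and the cytokinesis protein Anln (anillin) in 26. Their levels in the control sums were between 0 and 1.38 CPM, the highest being Kif11 in M26, where 1 cell held all 27 counts. Cenpe, a motor of the kinetochore, had 9 counts in 1 control cell and 30.3 CPM in bright cells of M116.

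Cenpa and Cenpf behaved differently from the other 25, since they were detected in every sum at a level of several CPM or more. Cenpa stood at 49.0 and 88.9 CPM in control cells of M26 and M73, at 30.9 and 95.3 CPM in bright and 47.2 and 56.5 CPM in dim cells of M25 and M116, and at 84.2 and 113 CPM in bright and dim cells of M72. The control values lie within the range of the others. Without the 11 cells its highest sum was that of the control cells of M73, 88.9 CPM. Cenpf stood at 11.3 and 6.59 CPM in control, at 17.0 and 69.8 CPM in bright, at 13.9 and 16.8 CPM in dim homozygous cells and at 12.1 and 143 CPM in M72. For the 25 genes without these 2, the summed level was 3.52 and 0.244 CPM in control cells, 1.48 and 540 CPM in bright cells of M25 and M116, 101 and 148 CPM in their dim cells and 23.96 and 624 CPM in bright and dim cells of M72. Without the 11 cells it was 31.3 CPM in bright and 39.3 CPM in dim cells of M116, 4.72 CPM in dim cells of M25 and 30.4 CPM in dim cells of M72. These values of M116 and M72 are higher than the 2 control values, those of M25 (1.48 CPM in bright and 4.72 CPM in dim cells) are close to that of M26, and the spread between mice was not estimated for this sum.

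**Figure D5:**
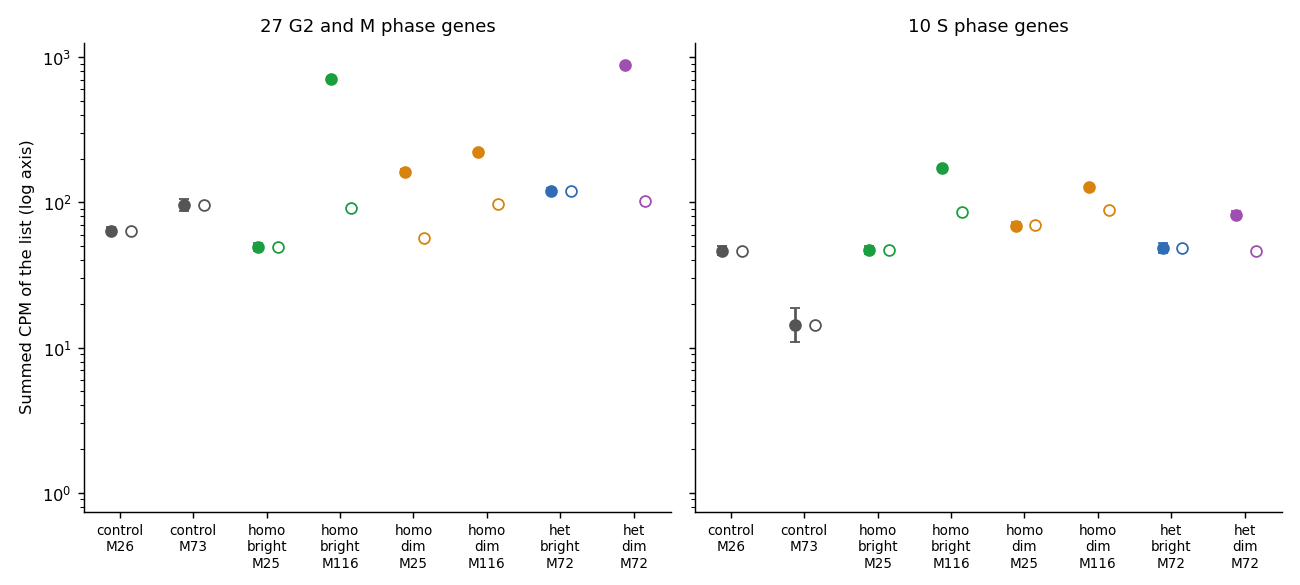
Summed CPM of the 27 G2 and M phase genes (left) and of the 10 S phase genes (right) on a log axis, by mouse and brightness, with exact Poisson 95% intervals that cover counting error only. Filled points hold all cells and open points leave out the 11 wells with 20 or more cell cycle genes; on the left, the filled points of bright cells of M116 (705 CPM) and dim cells of M72 (880 CPM) fall to 91.1 and 103 CPM.

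Summed over the 27 genes, the level was 63.9 and 95.7 CPM in control cells of M26 and M73, 49.4 and 705 CPM in bright and 162 and 221 CPM in dim cells of M25 and M116, and 120 and 880 CPM in bright and dim cells of M72. The group means were 79.8 ± 22.5 CPM (SD, n = 2 mice) in control, 377 ± 463 CPM (n = 2) in homozygous bright and 192 ± 41.5 CPM (n = 2) in homozygous dim cells, with 1 heterozygous mouse. The spread among bright cells was larger than their mean. Without the 11 cells the means were 79.8 ± 22.5, 70.3 ± 29.5 and 77.0 ± 28.8 CPM. The 11 cells were found by these genes and none was a control cell, so the lower homozygous means follow from the rule. Cenpa gave most of the control sums, with 49.0 CPM in M26 and 88.9 CPM in M73. No likeness of the groups is therefore drawn from these means. A further set left out the cells that held 3 or more markers of any other cell type, with the mural and erythroid lists included. The means were then 97.0 ± 62.9 CPM in control, 380 ± 445 CPM in bright and 84.2 ± 38.7 CPM in dim cells. Leaving out these cells thus lowered the level of dim cells and not that of bright cells.

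The S phase genes were spread over more cells than those of G2 and M phase. They were detected in 21 (Tyms) to 125 (Pcna) cells, with a median of 38.5 cells. Pcna stood at 14.4 and 2.93 CPM in control cells of M26 and M73, at 11.95 and 31.2 CPM in bright, at 11.7 and 27.6 CPM in dim homozygous cells and at 13.2 and 12.9 CPM in M72, so the homozygous values overlap that of M26. Mcm2, a subunit of the replicative helicase, stood at 4.39 and 0.244 CPM in control, at 6.29 and 9.18 CPM in bright, at 18.7 and 17.0 CPM in dim homozygous cells and at 2.02 and 2.29 CPM in M72. Both dim values lay above all others, and 9.64% of its counts came from the 11 cells. The other helicase subunits Mcm3, Mcm4, Mcm6 and Mcm7 were found in 39, 34, 28 and 38 cells, and their sums did not exceed 13.8, 8.59, 16.7 and 12.2 CPM. Rrm1 was at 10.7 CPM in both control mice, at 8.88 and 32.8 CPM in bright and at 9.14 and 28.7 CPM in dim cells of M25 and M116, and at 5.48 and 13.7 CPM in M72, with the highest values in M116. Mcm5 and Tyms (thymidylate synthase) were at 0 in both control mice, and Mcm5 was also at 0 in dim cells of M25. Rrm2, the regulatory subunit of ribonucleotide reductase whose level peaks in S phase, had 75.8% of its counts in the 11 cells, with 1146 CPM in A2.

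The 4 cells with the highest G2 and M phase levels differed in their S phase genes. Bright cell A2 had all 10 of them, with 403 CPM of Pcna, 218 CPM of Mcm6 and 392 CPM of Rrm1, and 260 CPM of Ccne1 (cyclin E1), which was not detected in the other 10 of the 11 cells. In B2 no count fell on Mcm2, Mcm3, Mcm5, Mcm6 or Pcna, and in D7 Pcna was at 1.39 CPM and Mcm2, Mcm5 and Mcm6 at 0. In A4 the genes Mcm2, Mcm4, Mcm5, Mcm6, Mcm7 and Tyms were at 0 and Cdc20 at 734 CPM, Cenpa at 867 CPM and Cenpe at 533 CPM, while Top2a was at 21.4 CPM. Each is a single cell, and whether a gene at 0 was missed in amplification or absent was not tested.

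The G1 cyclin Ccnd2 was the most abundant member, with 187.6 CPM as the mean of the 8 sums, and remained the highest per kilobase of exon (19.9 CPM per kilobase, against 12.1 for Cenpa and 8.45 for Ube2c, with exon lengths of GENCODE M21). Its level was 146 and 173 CPM in control cells of M26 and M73, 252 and 230 CPM in bright and 209 and 216 CPM in dim cells of M25 and M116, and 134 and 140 CPM in bright and dim cells of M72. On this scale both homozygous mice lay above both control mice in bright and in dim cells, but single cells overlapped widely, with medians of 136 and 164 CPM in control and of 212 and 197 CPM in bright cells of M25 and M116. After scaling by TMM factors the values of M73 (207 CPM) and of bright cells of M116 (200 CPM) changed order, and in the fit with dim cells M73 (202 CPM) lay above both M25 (195 CPM) and M116 (190 CPM). The log2 fold changes were 0.27 ± 0.32 (SE) in bright and 0.11 ± 0.33 in dim cells against control, with edgeR quasi-likelihood Benjamini-Hochberg adjusted p of 0.952 and 0.999. Ccnd1 was detected in 40 cells, at 2.09 and 0.244 CPM in control, 1.06 and 4.52 CPM in bright, 17.3 and 9.52 CPM in dim homozygous cells and 4.04 and 12.3 CPM in M72. Ccne1 was found in 7 cells. Annotated exons on the opposite strand overlap those of Ccnd1 and Ccnd2.

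To ask whether transgenic and control CMs differ in these genes, the counts of each mouse and brightness class were summed and compared with edgeR, with the mouse as the replicate and 2 mice in each group. For homozygous bright against control cells 17 of the 40 members passed the filter on low counts, and none passed an adjusted p of 0.05 (0.0164% of 12203 tested genes were called higher and 0.00% lower). At an unadjusted p of 0.05, 1 member was higher (Tyms), where the share of all genes was 4.70%, and none was lower (1.85% of all genes). Of the 17, 5 had higher values in M25 and M116 than in either control mouse, where the share of all genes was 24.3%. DESeq2 on the same genes called none of the 17 (0.869% of all genes), with 4 at an unadjusted p of 0.05 (8.31%). Within the first plate series, M25 against M26, the median log2 difference of the 5 tested G2 and M phase genes was -0.84, and within the second, M116 against M73, it was 3.80, where the medians of all genes were 0.014 and 0.42. Of these 5 genes, Kif11, Kif20a and Nusap1 had no count in M73 and at most 1.38 CPM in M26, so the second median rests on folds over 0 and is no support for a difference. The fold changes were 1.94 ± 0.84 (SE) for Cenpf and -0.50 ± 0.64 for Cenpa on the log2 scale, with edgeR adjusted p of 0.796 and 0.953, and that of Pcna was 1.02 ± 1.02 (0.943).

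For homozygous dim against control cells 33 of the 40 members passed the filter, and again none passed an adjusted p of 0.05 with edgeR (0.00% of 12195 genes were called in either direction). At an unadjusted p of 0.05, 17 of the 33 were higher, where the share of all genes was 4.40%, and none was lower (1.83%). Of these, 16 were G2 and M phase genes, among them Top2a, Ube2c, Mki67, Cdk1 and Kif23, and 1 was Tyms. Both dim mice lay above both control mice for 24 of the 33 (23.8% of all genes). Members at or near 0 in control cells could pass the filter only through the dim cells, so these counts are no support for a difference, and their fitted fold changes depend on the prior count and are not given. DESeq2 called 3 members higher (Top2a, Ube2c and Mki67), where it called 0.213% of all genes higher. Without the 11 cells, 15 members passed the filter, none was called (0.00% of 11891 genes) and 2 had an unadjusted p under 0.05 (4.99%). Of the 33 members, 10 had such a p with the plate series as a block (4.46% of all genes), and 2 of 33 without dim cells of M116 (1.35%). It was 5 of 38 without dim cells of M25 (1.26%) and 1 of 13 without cells that held 3 or more markers of another cell type (4.73%). Without cells of 5 or more cell cycle genes it was 0 of 5 (5.05%), and without control mouse M26 or M73 it was 21 and 16 of 40 (27.9% and 8.01%). Within the plate series the median log2 difference of the 21 tested G2 and M phase genes was 2.58 for M25 against M26 and 3.20 for M116 against M73, where the medians of all genes were 0.0074 and 0.44. As most of the 21 passed the filter through the dim cells, a positive median was fixed by this choice. In Cenpa the log2 fold change was -0.73 ± 0.48 and in Pcna 0.90 ± 1.01 (SE, edgeR adjusted p of 0.975 and 0.999).

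In homozygous bright against dim cells of the same 2 mice all 40 members passed the filter and none was called (0.00% of 13439 genes in either direction). At an unadjusted p of 0.05 none was higher (2.03% of all genes) and 2 were lower in bright cells (2.09%), Mcm2 with a log2 fold change of -1.24 ± 0.48 (SE) and Ccnd1 with -2.33 ± 0.88, both with an edgeR adjusted p of 0.999. DESeq2 called none of the 40 members (0.662% of all genes), with 4 at an unadjusted p of 0.05 (5.86%). The direction of the G2 and M phase genes was opposite in the mice. In M25 the median log2 difference of the 27 genes, bright minus dim, was -2.28, with 22 lower and 1 higher in bright cells and 4 at 0 in both (Aurka, Bub1, Kif11 and Ttk), whereas in M116 they were higher by a median of 2.12 and 26 of 27 were higher. Many of the 27, such as Mki67, Cdk1, Cdc20, Ube2c and Kif23, had no count in bright cells of M25. The median of M25 thus rests on folds over 0, and 2 of its dim cells held 69.0% of the dim counts of the 27 genes. The cells with 20 or more cell cycle genes were 0 bright and 2 dim cells of M25, and 3 bright and 5 dim cells of M116, of which the 3 bright cells had the highest levels. With a block for the mouse, which pairs bright and dim cells of an animal, 17 members were higher and 23 lower, against 31 and 9 without it, and none was called in either fit. In the edgeR fit with the block 1 member had an unadjusted p under 0.05 (3.48% of all genes), against 2 without it. For Top2a the log2 fold change was 0.27 ± 1.76 without the block and reversed with it.

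Other genes of the cycle, which the count of members did not use, were taken from 6 lists. Of 47 further mitosis genes, 37 had more than 50% of their counts in the 11 cells and 25 had more than 80% there, and with the limit of 200 counts set for all features it was 36 and 24 of 44 genes, where 1.34% and 0.590% of all features did. Between 38 and 46 of the 47 were detected in the 4 highest cells, 17 to 31 in the other 7, and 0 to 17 with a median of 4 in the remaining 223 cells. Pttg1 (securin) and Smc4, a condensin subunit, had the highest mean levels of this list, with 14.97% and 44.7% of their counts in the 11 cells. Of 33 replication genes 6 had more than 50% of their counts there (4 of 27 with 200 or more counts), with the licensing inhibitor Gmnn (geminin, 10.9%) and Rpa1 (9.98%) as the most abundant. Bright cell A2 had 28 of the 33 replication genes, and the other 10 cells had 9 to 18.

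Most genes of the other lists were found beyond the 11 cells. Among 10 cyclins and kinases of G1 and S phase, Cdk4 (59.3 CPM as the mean of the 8 sums, detected in 167 cells) and Cdk6 (54.8 CPM, 180 cells) were the most abundant, and 1 gene, Skp2, had more than 50% of its counts in the 11 cells (80.7%, detected in 5 cells). Of 20 genes of the RB, E2F and DREAM families 5 did, namely Foxm1 (96.5%), Mybl2 (86.2%), E2f7 (85.0%), E2f8 (69.7%) and E2f5 (50.9%), which were found in 3 to 20 cells, with 3 of 17 left at 200 or more counts, and with E2f6 (53.3 CPM) and Tfdp2 (47.6 CPM) as the most abundant. Among 7 inhibitors of cyclin-dependent kinases, Cdkn1a (p21) was at 268 and 158 CPM in control cells of M26 and M73, at 98.3 and 104 CPM in bright, at 86.2 and 69.7 CPM in dim homozygous cells and at 26.2 and 89.7 CPM in M72, so that both control mice lay above every transgenic sum. Its edgeR adjusted p was 0.663 in bright and 0.735 in dim cells against control. Cdkn2d averaged 26.3 CPM, Cdkn2b was found in 3 cells with 97.4% of its counts in the 11, and Cdkn2a had no count. Skp2, Cdkn2a, Cdkn2b and the 5 genes of the RB, E2F and DREAM families were named after their values were seen. None of 13 subunits of the anaphase-promoting complex had more than 50% of its counts in the 11 cells, and Anapc5 and Anapc13 were found in 211 and 215 cells. Over the 6 lists, 78 genes were tested in bright against control cells, 94 in dim against control and 119 in bright against dim cells, and edgeR called none at an adjusted p of 0.05, with 10, 20 and 0 at an unadjusted p of 0.05, where the shares of all genes were 6.55%, 6.22% and 4.12%. Several of these genes, such as Spc25 and Smc2, had no count in either control mouse and passed the filter only through the transgenic cells, so these counts are no support for a difference. DESeq2 called 3, 2 and 0 genes of the 6 lists, where it called 0.869%, 0.451% and 0.662% of all genes.

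Total counts ranged from 487 to 1392253 per cell (median 711527), and those of the 11 cells from 650751 to 1173971. Fewer than 1000 genes were detected in 15 cells. Each cell had its own pair of index sequences and no 2 cells had the same counts. Since reads can change index between libraries sequenced together, the cells that share 1 index with a cell of high level in their plate series were counted: they were 85.2% of the 223 remaining cells and held 87.5% of the 112 detections of the 25 G2 and M phase genes at 1 to 4 counts and 87.8% of the 90 detections at 5 or more. Counts of Ccnb1, Ccnb2, Pcna and Tyms may miss or gain reads of near-identical pseudogenes and are uncertain, and exons of Ccna2, Cdc20, Kif20a, Nusap1, Plk1, Prc1 and Mcm7 overlap other genes on the opposite strand in GENCODE M21.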

How the data were processed

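The deposited values are raw read counts per gene: per the study's methods, the authors aligned the reads by STAR against mouse sequence extended by human BAG3 and eGFP, and STAR's gene counting gave the table. The build, annotation and strand column are not given in the sources used here. Cells with little cDNA had been left out before sequencing. No doublet caller was run on these hand-picked cells. The table was used as deposited, with 0 columns of unknown origin, and 141 features with a repeated symbol were kept apart.

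A gene was called detected in a cell with 1 count or more. Levels are counts per 1000000 counts of a cell or of the sum over the cells of a mouse and brightness class, which held between 4096609 and 40508124 counts. Exact Clopper-Pearson and Poisson intervals are at 95% and cover counting error only, and a count of 0 was read as up to 3 counts. The sums were compared with edgeR 4.0.16 (R 4.3.3, filterByExpr, TMM scaling, quasi-likelihood test, Benjamini-Hochberg threshold of 0.05), with 2 mice against 2 mice, so that p-values measure the spread between mice. The heterozygous mouse had no replicate and was not tested. M25 and M116 each gave both dim and bright cells, and over 6901 genes the difference between these mice in bright cells correlated with that in dim cells (r = 0.135, 2 pairs), so a fit with the mouse as a block was made as well. DESeq2 1.42.0, library-size scaling, a block for the plate series, no filter, thinning to 100000 counts, other thresholds, leaving out cells and leaving out each mouse were the alternatives. The test was checked on simulated counts. Python 3.11.15 was used for all else.

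The 40 members, the further lists and the marker lists were chosen with earlier results of these data known, and the threshold of 20 genes was chosen after the values were seen. By the rule for named genes, the text names the members, any gene of the further lists past the threshold in the edgeR fits as reported (none was), the 2 most abundant genes of each such list, and markers found in cells with 5 or more members. The genes of the further lists that the text marks as named after their values were seen fall outside this rule, as do Spc25 and Smc2. Markers used were lists of 12 CM, 12 endothelial, 10 fibroblast, 12 macrophage, 6 lymphocyte, 4 neutrophil, 6 erythroid, 7 mural, 3 epicardial and 3 glial genes. A cell was said to hold another cell type's genes with 3 or more of its markers. Of the neutrophil markers none had a count in any cell.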

Additional observations from a re-analysis of the deposited data

Results flagged for a closer look

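The difference between bright and dim cells in the 27 G2 and M phase genes had opposite directions in the 2 homozygous mice. The median over the 27 genes of the log2 difference, bright minus dim, was -2.28 in M25, where 1 gene was higher in bright cells, 22 were lower and 4 were at 0 in both, and 2.12 in M116, where 26 were higher. Many of the 27 genes had no count in bright cells of M25, so the median of M25 rests on folds over 0. The difference between the mice was not tested, since each mouse gives 1 value. In M25 the cells with 20 or more cell cycle genes were 2 dim cells, and in M116 the 3 cells with the highest levels of these genes were bright.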

How the results depend on the processing

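Among the 40 members, the count called at an adjusted p of 0.05 was 0 in each comparison as reported. Without the filter on low counts it was 9 in bright against control, 2 in dim against control and 1 in bright against dim cells (0.787%, 0.287% and 0.992% of all genes), and DESeq2 gave 3 in dim against control cells (0.451%). Leaving out 1 mouse at a time gave 0 to 3, 0 to 4 and 0 to 3 calls in these comparisons, with the highest counts without bright cells of M25 (Ube2c, Cdc20 and Mki67; 0.107% of all genes), without control cells of M26 (Ube2c, Mcm2, Top2a and Mki67; 5.89% of all genes) and without bright cells of M116 (Ube2c, Top2a and Mki67, all lower in bright cells; 0.509% of all genes). A lone mouse is there assumed to vary like the other group. The block for the mouse, which pairs bright and dim cells, gave 0 calls and turned Top2a to -2.15.

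The share of cells with 5 or more genes was 40.6% when a gene needed 2 counts, 29.9% with 5 counts, 84.2% at a threshold of 3 genes, 16.2% at 8, 12.4% at 10, 35.5% after thinning, 10.3% for the 27 G2 and M phase genes and 37.2% without the G1 cyclins. At 20 genes, added after seeing the data, it was 4.70%, and 4.21% after thinning.

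The summed level of the 27 genes fell without the top cell of each sum to 52.2 CPM in control, 208 CPM in bright, 134 CPM in dim, 98.5 CPM in heterozygous bright and 103 CPM in heterozygous dim cells. Without cells of 5 or more genes it was 87.4 ± 30.9 CPM in control, 39.1 CPM in bright and 59.4 CPM in dim cells. These cells were left out by the same genes, and they were 33.3% of control, 51.3% of bright and 63.2% of dim cells. The order of the 3 means is therefore no result about the groups. Without cells of 20 or more genes it was 70.3 CPM in bright, 77.0 CPM in dim and 103 CPM in heterozygous dim cells. Without cells holding other markers it was 84.2 CPM in dim, 140 CPM in heterozygous bright and 87.0 CPM in heterozygous dim cells. As a mean over cells it was 160 and 665.5 CPM in heterozygous bright and dim cells. Leaving out 1 mouse gave 63.9 to 95.7 CPM in control, 49.4 to 705 CPM in bright and 162 to 221 CPM in dim cells.

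Single genes changed direction in bright against control cells without the cells of 5 or more genes (Cenpf -0.47 and Pcna -0.36, log2). Leaving out 1 mouse gave -0.059 to 0.32 for Ccnd2 in dim against control, -1.46 to 0.12 for Cenpa in bright against control and -7.31 to 1.26 for Top2a in bright against dim cells. The causes were not tested. Depth limits the cells with few counts, where 1 read exceeds the level of most members.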
